A study of Mus musculus with 6 samples.

Results

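Chemokines are small secreted proteins that guide the movement of leukocytes and other cells along gradients, and their receptors signal through inhibitory G proteins. CC and CXC ligands are named for the spacing of their first conserved cysteines. In the lung, macrophages, epithelium, endothelium and fibroblasts make them. Some are made constantly and others only during infection or injury. The genes described here were the protein-coding genes named Ccl, Cxcl, Ccr or Cxcr with a number and at most one letter in the deposited normalized table. Of 34 such genes 5 were set aside and are not analysed here, which left 29 of the 24521 genes in that table, 23 of them ligands and 6 receptors.

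Lung lobes of mouse embryos were taken without aeration at stage E18.5, near birth, and their polyadenylated RNA was sequenced. There were 3 libraries from lungs labelled Mll3FDC/FDC (Mll3 KO) and 3 from wild-type lungs. Mll3, encoded by Kmt2c, is a methyltransferase of histone H3 lysine 4 that acts at enhancers. The labels do not give the part of the gene that the allele removes, the strain, or whether each library is an embryo or litter of its own, so p-values rest on the spread between 3 and 3 libraries that may be technical. Libraries held 20158689 to 23305306 reads. Reads over the whole Kmt2c gene averaged 158 ± 14.2 CPM (reads of a gene scaled to a fixed library size) in knockout and 168 ± 9.58 CPM in wild-type lungs (SD, n = 3 each), so gene-level counts did not separate the genotypes. Knockout 3 had 59951 reads of Xist and the other 5 libraries had 6 to 27. Xist was therefore not balanced between the genotypes, and a refit without knockout 3 leaves out the only library high in it. The surfactant genes Sftpc and Sftpb, which mark alveolar epithelium, averaged 12163 and 1938 CPM in knockout and 12347 and 1759 CPM in wild-type lungs. Of 8 markers of lung epithelium, endothelium and mesenchyme 0 were called by edgeR, 3 had an unadjusted p under 0.05, and these 3 did not overlap between genotypes. Over all genes tested, 10.7% had an unadjusted p under 0.05 and 17.0% did not overlap. Ager, of flat alveolar cells, was at −0.45 (log2 fold change), while Epcam and Nkx2-1, of epithelium in general, were at 0.37 and 0.25. DESeq2 called Ager and Epcam, with adjusted p-values of 1.95e-05 and 0.021. The T cell marker Cd3e was at 0 to 0.14 CPM in all 6 libraries.

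Of the 29 members, 17 had enough reads to be tested, with 62 to 4614 reads over the 6 libraries, and 12 with 12 to 65 reads did not pass the filter. In edgeR's quasi-likelihood test with Benjamini-Hochberg adjustment over all 19042 genes tested, 0 of the 17 were higher and 0 were lower in knockout lungs at an adjusted p under 0.05. The same test called 0.368% of all genes (0.0630% higher and 0.305% lower). At an unadjusted p under 0.05 there were 4 of 17 members, against 10.7% of all genes. Those 4 were Ccl6, Ccl9 and Cxcl14, at lower levels in knockout lungs, and Ccl28, at a higher level. DESeq2 called Ccl6 alone among the 13 members to which it gave an adjusted p, against 2.12% of all genes (0.365% higher and 1.76% lower). Limma voom called 0 members, against 0.0420% of all genes (0.00% higher and 0.0420% lower). EdgeR without a filter called 1 member, again Ccl6, against 1.28% of all genes (0.298% higher and 0.982% lower). The median log2 fold change of the tested members was −0.01, against 0.01 over all genes tested. The knockout and wild-type values did not overlap for 6 of the 17 (3 higher and 3 lower), against 17.0% of all genes tested.

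**Figure D1:**
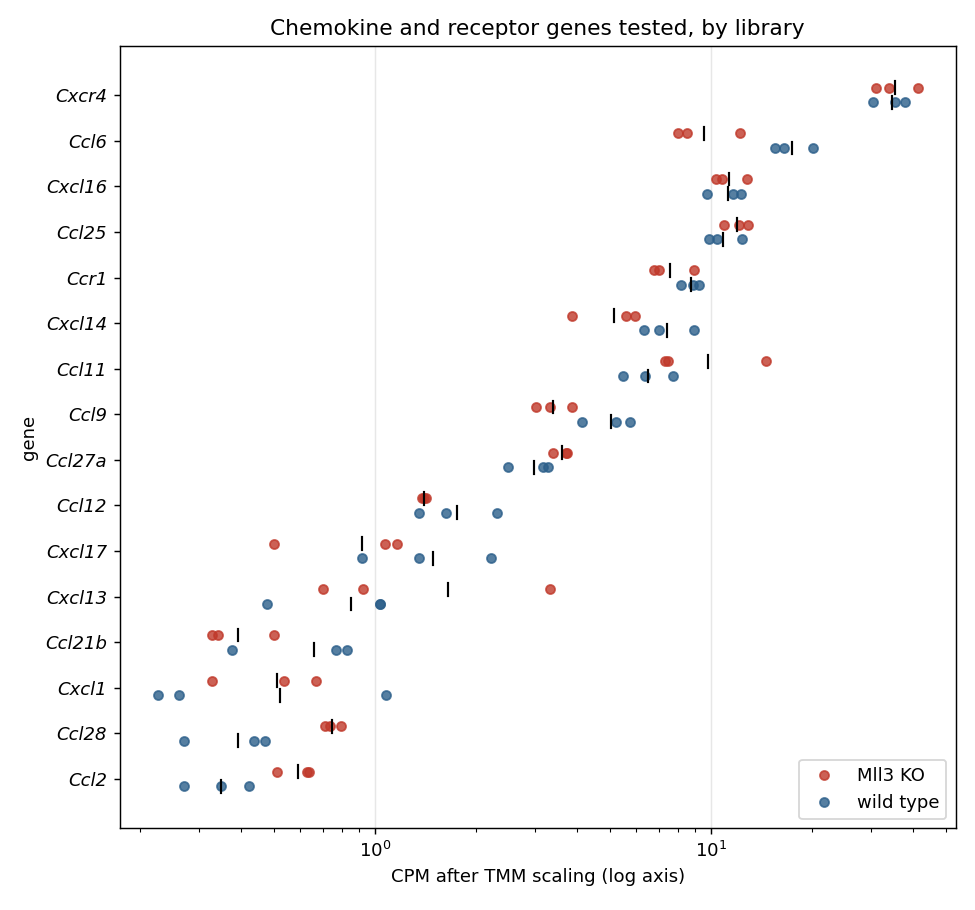
CPM after TMM scaling (log axis) of 16 of the tested genes, with 1 point per library, knockout above wild type in each row, and the group mean as a black bar. Cxcr4 sits highest at 30.4 to 41.2 CPM in the 6 libraries, and the knockout points of Ccl6 lie left of all wild-type points.

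Levels can be compared between genes only per length of transcript. On the scale of CPM per kilobase of exon, Cxcr4 was the highest of the 29 at 19.6 ± 2.93 in knockout and 19.1 ± 2.08 in wild-type lungs (SD, n = 3 each). Ccl11 followed at 9.05 ± 3.86 in knockout and 6.02 ± 1.05 in wild-type lungs, and Ccl6 at 5.34 ± 1.29 in knockout and 9.70 ± 1.37 in wild-type lungs. In knockout lungs the mean of Ccl11 was above that of Ccl6 with overlapping spreads, and in wild-type lungs it was below. Cxcl16 and Cxcl14 came next, at 3.74 ± 0.44 and 2.81 ± 0.62 in knockout lungs and at 3.71 ± 0.43 and 4.05 ± 0.73 in wild-type lungs. Gene length here counts all annotated exons, so that genes with many annotated transcripts, such as Ccl25 with 7445 bases, are placed low.

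Inflammatory CC ligands attract monocytes, macrophages, eosinophils and T cells. Of the 10 members in this group 5 were tested and none was called by edgeR (2 at an unadjusted p under 0.05). DESeq2 called 1, Ccl6, and gave Ccl2 no adjusted p. Ccl6 (ENSMUSG00000018927, mm10 chr11:83587882-83593087) is a ligand of the receptor CCR1 that mouse macrophages and other myeloid cells make. It had 7.99, 8.51 and 12.2 CPM in knockouts 1, 2 and 3, against 20.2, 16.6 and 15.5 CPM in wild types 1, 2 and 3. All 3 knockout libraries lay under all 3 wild-type libraries, and knockout 3 was the nearest to them. The log2 fold change was −0.86 ± 0.17 (SE), with a 95% interval of −1.25 to −0.47, and it missed the threshold (edgeR adjusted p = 0.0869). Ccl6 passed in 3 of the 15 alternatives and missed in the others. Limma voom gave an adjusted p of 0.103, and edgeR with a filter of 1 CPM in 3 libraries one of 0.0844. The 3 that passed were as follows. DESeq2 gave an adjusted p of 0.000605 and edgeR without a filter on low counts one of 0.000128, and edgeR without knockout 3 gave −1.08 with an adjusted p of 0.0492. Ccl6 was then the 1 member called, against 0.137% of all genes (0.0152% higher and 0.122% lower). Over all 15 alternatives the adjusted p ran from 0.000128 to 0.30 and the log2 fold change from −1.08 to −0.75. Sample titles begin with AK7986 for knockout 1 and wild types 1 and 2 and with AK7987 for the other 3 libraries, and the labels do not say what these numbers mean. The log2 ratio of Ccl6 was −1.20 within AK7986 and −0.58 within AK7987.

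Ccl9 (ENSMUSG00000019122, mm10 chr11:83572919-83578636), another CCR1 ligand of rodents, lies next to Ccl6 on the same strand, with 9.2 kb between them. It had 3.01, 3.86 and 3.31 CPM in knockouts 1, 2 and 3, against 5.24, 5.75 and 4.14 CPM in wild types 1, 2 and 3. The genotypes did not overlap, though knockout 2 and wild type 3 were close. Its log2 fold change of −0.57 ± 0.19 (SE), with a 95% interval of −0.99 to −0.16, did not pass (edgeR adjusted p = 0.283), nor did it in any of the 15 alternatives. Within AK7986 its log2 ratio was −0.87, and within AK7987 it was −0.21. None of the 75-base words in the transcripts of Ccl6 and Ccl9 occurs in the transcripts of another gene (GENCODE M21), so reads as long as these were not shared between the neighbours.

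The 250 bases before the start of each of these neighbours are shown because both genes had lower values in every knockout library than in any wild-type library. They are RefSeq promoters of GRCm38.p6, on the minus strand, at chr11:83593088-83593337 for Ccl6 and chr11:83578637-83578886 for Ccl9, written 5′ to 3′. Capitals mark every run of at least 8 letters that the other promoter also holds.
Ccl6: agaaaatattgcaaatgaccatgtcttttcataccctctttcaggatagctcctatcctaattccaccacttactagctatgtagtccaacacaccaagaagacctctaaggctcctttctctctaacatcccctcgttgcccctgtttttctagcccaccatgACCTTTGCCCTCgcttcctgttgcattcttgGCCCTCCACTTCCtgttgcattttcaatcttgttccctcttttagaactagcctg
Ccl9: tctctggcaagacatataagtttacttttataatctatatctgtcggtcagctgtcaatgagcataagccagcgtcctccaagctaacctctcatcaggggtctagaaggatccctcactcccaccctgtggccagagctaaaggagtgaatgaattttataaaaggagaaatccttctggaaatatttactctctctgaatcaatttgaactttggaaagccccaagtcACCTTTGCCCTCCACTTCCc

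The longest run in Ccl9 had 19 letters and overlapping parts of it stood apart in Ccl6, where the longest run had 13. The run ACCTTTGCCCTC occurred on either strand in 4 of 32536 RefSeq promoters of this length. Ccl6 and Ccl9, from which this run was taken, are among the 4. The count is therefore not a test of the run. Matches were counted on both strands, with overlaps allowed. GGAAGT, the core that transcription factors of the ETS family bind, had 1 match in each promoter, and 19.8% of all promoters had a match. That match lies within the capitals, as its reverse complement. TATAAA matched 0 times in Ccl6 and 3 times in Ccl9 (12.3% of all promoters had a match). The interferon-stimulated response element, searched as GAAA, any 2 letters and GAAA again, matched neither promoter (3.0% of all promoters had a match). These are letter matches only.

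Chromosome 11 carried 10 of the 29 members. Apart from Cxcl16 they lie in a pair of clusters. Ccl2, Ccl7, Ccl11 and Ccl12 start within 66.3 kb of the start of Ccl2, and Ccl5, Ccl9, Ccl6, Ccl3 and Ccl4 start between 1490.2 and 1627.0 kb from it. The point estimates of the tested genes of the second cluster, Ccl6 and Ccl9, were both negative, and those of the first were mixed. Ccl11 (mm10 chr11:82057823-82062955), the eosinophil attractant eotaxin, had 14.6, 7.29 and 7.47 CPM in knockouts 1, 2 and 3, against 5.46, 6.36 and 7.71 CPM in wild types 1, 2 and 3. Knockout 1 alone stood above the wild-type range. Its log2 fold change of 0.59 ± 0.29 (SE) did not pass (edgeR adjusted p = 0.519), and was 0.18 without knockout 1. The log2 ratio was 1.30 within AK7986, which holds that library, and −0.06 within AK7987.

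Ccl2, which draws monocytes, had a higher CPM in each knockout library than in any wild-type library but was low throughout, with 39 reads in knockout and 23 in wild-type lungs. It had 0.63, 0.64 and 0.51 CPM in knockouts 1, 2 and 3, against 0.27, 0.35 and 0.42 CPM in wild types 1, 2 and 3 (log2 fold change 0.76 ± 0.36 SE, edgeR adjusted p = 0.489). Ccl12, a monocyte attractant known from the mouse, had 1.38 to 1.42 CPM in knockout and 1.35 to 2.30 CPM in wild-type lungs, and the groups overlapped. Its log2 fold change of −0.33 ± 0.26 (SE) did not pass (edgeR adjusted p = 0.709). Ccl7, a relative of Ccl2, was not tested. It had 29 reads in knockout and 22 in wild-type lungs, of which knockout 1 held the most, at 0.67 CPM.

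**Figure D2:**
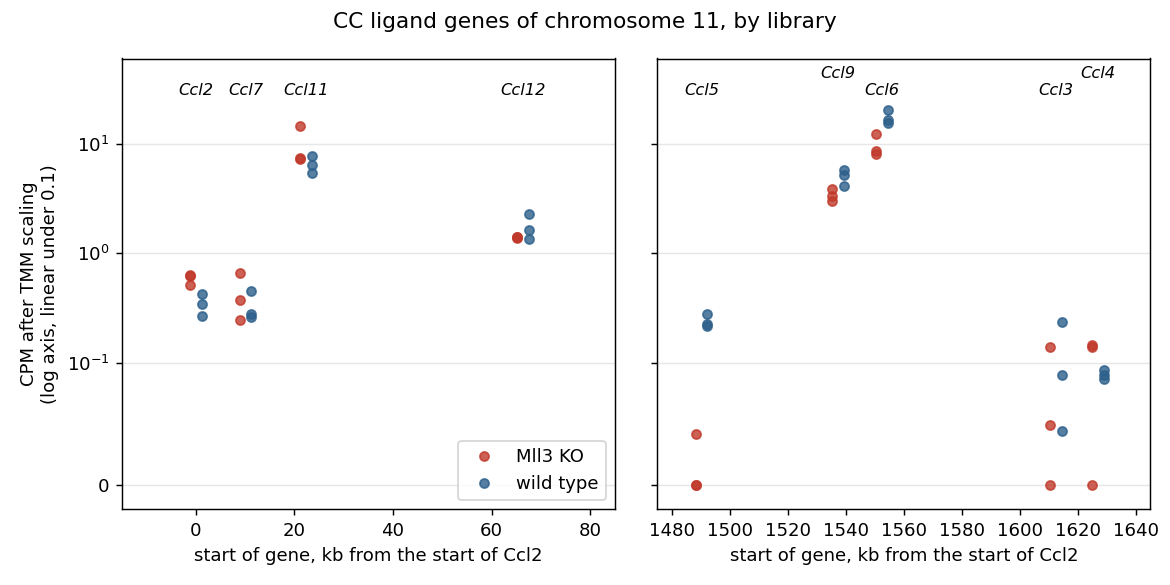
CPM after TMM scaling (log axis, linear under 0.1) of the CC ligand genes in the clusters of chromosome 11, by distance of each gene's start from the start of Ccl2 in kb, with 1 point per library, shifted left for knockout and right for wild type. Knockout points lie under the wild-type points at Ccl5, Ccl9 and Ccl6 and above them at Ccl2.

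Macrophage content was described beside Ccl6 and Ccl9, since whole lungs were sequenced and fewer cells of a type cannot be told apart from less RNA per cell. Of 8 macrophage and monocyte markers, all tested, 7 had a negative point estimate. EdgeR called 0 of the 8, and 3 had an unadjusted p under 0.05, against 10.7% of all genes. DESeq2 called 1 of the 8, Fcgr1, with an adjusted p of 0.0229. Their summed level was 144 to 158 CPM in knockout and 165 to 178 CPM in wild-type lungs, and none of the 8 was at 0. Their log2 fold changes ran from −0.79 to 0.09 with a median of −0.14. Csf1r, the receptor that macrophages need for survival, was at −0.05 and the mannose receptor Mrc1 at −0.27. Fcgr1, the high-affinity IgG receptor, was at −0.79, with 4.45 ± 0.95 CPM in knockout and 7.70 ± 0.62 CPM in wild-type lungs (SD, n = 3 each). Mrc1 and Fcgr1 were the only markers of the 8 without overlap between genotypes, against 17.0% of all genes tested. Of 4 alveolar macrophage precursor markers 3 were tested and 0 called by edgeR (2 at an unadjusted p under 0.05), and their sums were 20.7 to 37.8 CPM in knockout and 21.3 to 32.6 CPM in wild-type lungs. Ear2 was at −0.53 without overlap, and Siglecf had 4 reads in knockout and 18 in wild-type lungs. Marco went the other way, at 1.34 without overlap (edgeR adjusted p = 0.294, DESeq2 adjusted p = 0.000698). The 4 leukocyte markers summed to 77.1 to 97.3 CPM in knockout and 84.3 to 116 CPM in wild-type lungs, with a median of −0.29, 3 negative estimates and 2 at an unadjusted p under 0.05. Among them Cd53 was at −0.56 without overlap and Coro1a at 0.02. The part of these cells in the Ccl6 and Ccl9 values was not tested.

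**Figure D3:**
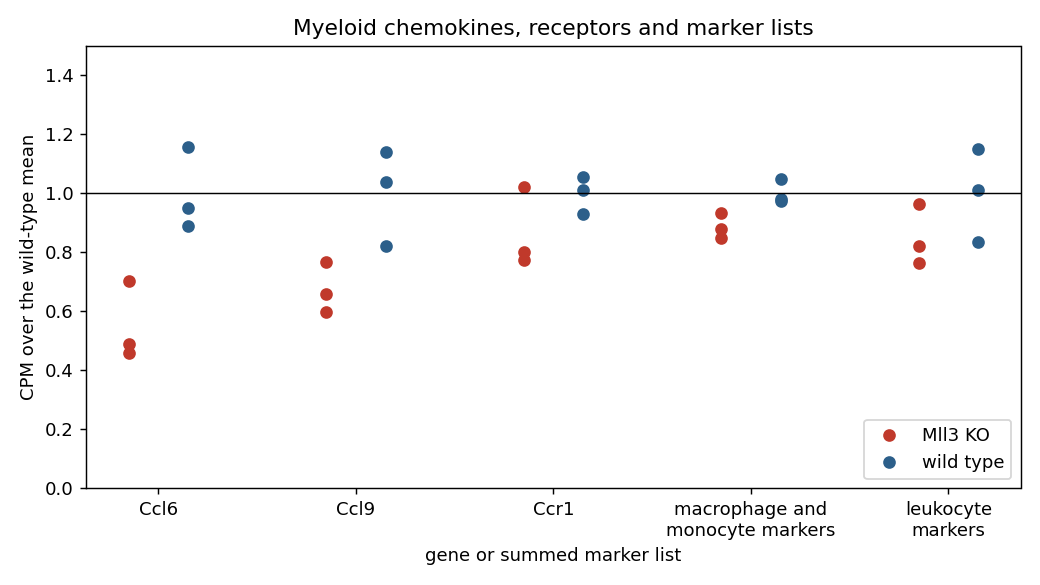
CPM over the wild-type mean (linear axis from 0), with 1 point per library and knockout left of wild type, for the ligands Ccl6 and Ccl9, the receptor Ccr1 and the summed macrophage and leukocyte marker lists. Knockout points lie under the wild-type points for Ccl6, Ccl9 and the macrophage list, where knockout sums were 144 to 158 CPM and wild-type sums 165 to 178 CPM.

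The other inflammatory CC ligands were too low to be tested. Ccl5, a T cell attractant that T and natural killer cells make, had 1, 0 and 0 reads in knockouts 1, 2 and 3, against 5, 5 and 6 reads in wild types 1, 2 and 3. Scaled for depth this is a ratio of 0.063, knockout over wild type, with an exact 95% interval of 0.002 to 0.406 that covers counting error only. Without a filter edgeR gave it an adjusted p of 0.077. Ccl5 and, below, Cxcr3 were singled out after their values were seen. Natural killer and innate lymphoid markers, 1 of 4 tested, summed to 1.51 to 4.26 CPM in knockout and 1.74 to 2.53 CPM in wild-type lungs. T cell markers, 1 of 6 tested, summed to 2.47 to 3.33 CPM in knockout and 2.30 to 3.07 CPM in wild-type lungs, and the knockout sums of both lists overlapped the wild-type sums. Lck and Gata3, which other cells also express, made up most of these sums. Of the scarcer markers, Cd3d had 3 reads in knockout and 9 in wild-type lungs. Ncr1 had 2 and 7 reads and Klrb1c 9 and 12, in the same order. The other scarce markers had more reads in knockout lungs. In the same order, Cd3e had 6 and 4 reads, Cd3g 10 and 6, Cd4 27 and 22, Cd8a 11 and 6, and Il7r 26 and 19. Their part in the Ccl5 and Cxcr3 values was not tested. Ccl24, the second eotaxin, had 15 reads in knockout and 25 in wild-type lungs. Ccl3 and Ccl4, inflammatory ligands made by activated macrophages, had 4 and 6 reads in knockout and 8 and 6 reads in wild-type lungs, with ratio intervals of 0.111 to 1.88 and 0.27 to 3.77 that include 1.

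Homeostatic CXC ligands are made without infection, largely by epithelium and stroma. All 4 members of this group were tested and none was called by edgeR (1 at an unadjusted p under 0.05, and 0 in DESeq2). Cxcl14 (ENSMUSG00000021508, mm10 chr13:56288643-56296551), a chemokine of epithelia and fibroblasts, had 3.85, 5.97 and 5.60 CPM in knockouts 1, 2 and 3, against 7.00, 6.32 and 8.89 CPM in wild types 1, 2 and 3. All knockout values lay under all wild-type values, with knockout 2 and wild type 2 close together. The log2 fold change was −0.53 ± 0.20 (SE), with a 95% interval of −0.97 to −0.08, and did not pass (edgeR adjusted p = 0.368). When the leading number of the titles was added as a term, the log2 fold change was −0.70 and passed (edgeR adjusted p = 0.0271). Cxcl14 was the 1 member called in that model, against 3.28% of all genes (0.746% higher and 2.54% lower). Within AK7986 its log2 ratio was −0.79, and within AK7987 it was −0.62. The 4 markers of adventitial fibroblasts summed to 432 to 576 CPM in knockout and 544 to 674 CPM in wild-type lungs. All 4 had negative estimates, with a median of −0.34, 0 were called by edgeR and 1 had an unadjusted p under 0.05. That was Dpt, at −0.50 without overlap, which DESeq2 called (adjusted p = 0.00729). Dcn, another of the 4, had 29.0, 79.5 and 17.5 CPM in knockouts 1, 2 and 3. In wild types 1, 2 and 3 it had 123, 22.6 and 26.2 CPM. Its estimate of −0.45 had an SE of 1.015 and was 0.78 without wild type 1, the library with the sum of 674 CPM. The part of adventitial fibroblasts, or of the epithelium described above, in the Cxcl14 values was not tested.

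Cxcl17, a mucosal chemokine of airway epithelium, had 0.50, 1.08 and 1.17 CPM in knockouts 1, 2 and 3, against 1.35, 0.91 and 2.21 CPM in wild types 1, 2 and 3. The groups overlapped, and its log2 fold change of −0.71 ± 0.40 (SE) did not pass (edgeR adjusted p = 0.58). Cxcl13, which draws B cells through CXCR5, had 0.92, 3.33 and 0.70 CPM in knockouts 1, 2 and 3, against 1.04, 0.48 and 1.03 CPM in wild types 1, 2 and 3. Knockout 2 alone was high, and the log2 fold change of 0.94 ± 0.64 (SE, edgeR adjusted p = 0.661) was −0.06 without that library. B cell markers summed to 8.46 CPM in knockout 2, against 6.49 to 8.36 CPM in the wild-type libraries, and their part in this value was not tested. Cxcl16, a membrane-bound ligand of CXCR6, averaged 11.3 ± 1.32 CPM in knockout and 11.2 ± 1.31 CPM in wild-type lungs (SD, n = 3 each). Its log2 fold change of 0.01 had a 95% interval of −0.29 to 0.31.

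Neutrophil-attracting CXC ligands were represented by Cxcl1 and Cxcl3. Cxcl1 had 0.67, 0.54 and 0.33 CPM in knockouts 1, 2 and 3, against 0.23, 0.26 and 1.08 CPM in wild types 1, 2 and 3. Wild type 3 was the highest of the 6 libraries, and the wild-type values spanned those of the knockouts. Its log2 fold change was −0.01 with a wide 95% interval of −1.39 to 1.38, and 1.05 without wild type 3 (edgeR adjusted p = 0.659). Cxcl3 was not tested and had 29 reads in knockout and 25 in wild-type lungs. The interferon-inducible CXC ligands Cxcl9 and Cxcl11 are not among the 29. The count table held 1 read of Cxcl9, in wild type 1, and 0 of Cxcl11, so a difference was not detectable at this depth.

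The homeostatic and T cell attracting CC ligands had 7 members, of which 4 were tested and none was called by edgeR (1 at an unadjusted p under 0.05). DESeq2 called 0 of the 2 to which it gave an adjusted p, which leaves out Ccl28 and Ccl21b. Ccl28 (ENSMUSG00000074715, mm10 chr13:119623819-119654359), which mucosal epithelia make to draw cells with CCR10, had 0.71, 0.73 and 0.79 CPM in knockouts 1, 2 and 3, against 0.27, 0.44 and 0.47 CPM in wild types 1, 2 and 3. Every knockout library was above every wild-type library. The log2 fold change was 0.92 ± 0.34 (SE), with a 95% interval of 0.16 to 1.68 and no pass (edgeR adjusted p = 0.355), and the log2 ratio was 1.01 within AK7986 and 0.70 within AK7987. These values rest on 49 reads in knockout and 26 in wild-type lungs. Of the epithelial markers above, Epcam, Nkx2-1 and Sftpb had positive estimates (0.37, 0.25 and 0.14). Sftpc and Ager had negative ones (−0.02 and −0.45). The part of the epithelium in the Ccl28 values was not tested. Ccl25, known as the thymus and gut ligand of CCR9, had 12.14, 12.91 and 10.97 CPM in knockouts 1, 2 and 3, against 9.85, 12.4 and 10.4 CPM in wild types 1, 2 and 3. The groups overlapped (log2 fold change 0.14 ± 0.13 SE, edgeR adjusted p = 0.752). Of 7 thymus markers 5 had at most 10 reads, and Foxn1 and Psmb11, of thymic epithelium, were at 0 to 0.09 CPM in every library. Rag1, of immature lymphocytes and the 1 tested, had 1.21, 1.76 and 0.28 CPM in knockouts 1, 2 and 3, against 0.68, 0.26 and 0.42 CPM in wild types 1, 2 and 3 (log2 fold change 1.25, edgeR adjusted p = 0.521). The list summed to 0.61 to 2.20 CPM in knockout and 0.57 to 1.13 CPM in wild-type lungs, and its part in the Ccl25 values was not tested.

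Ccl27a, a ligand of CCR10, had 3.39, 3.72 and 3.73 CPM in knockouts 1, 2 and 3, against 3.16, 3.27 and 2.49 CPM in wild types 1, 2 and 3. The groups did not overlap and the log2 fold change of 0.28 ± 0.18 (SE) did not pass (edgeR adjusted p = 0.643). Of the 75-base words in its transcripts 33.3% also occur in other genes, among them Ccl27b, so its count is uncertain. The same holds more strongly for the near-identical Ccl21a and Ccl21b, ligands of CCR7 made by lymphatic endothelium, with 61.3% and 100% of such words shared. Ccl21b had 0.50, 0.34 and 0.33 CPM in knockouts 1, 2 and 3, against 0.77, 0.83 and 0.38 CPM in wild types 1, 2 and 3, and wild type 3 lay within the knockout range (log2 fold change −0.74 ± 0.41 SE, edgeR adjusted p = 0.564). Ccl21a was not tested and had 25 reads in knockout and 40 in wild-type lungs. Lymphatic endothelial markers summed to 243 to 300 CPM in knockout and 285 to 306 CPM in wild-type lungs, and their part in the Ccl21 values was not tested. Ccl20 and Ccl22 had 14 and 5 reads in knockout and 11 and 8 reads in wild-type lungs.

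**Figure D4:**
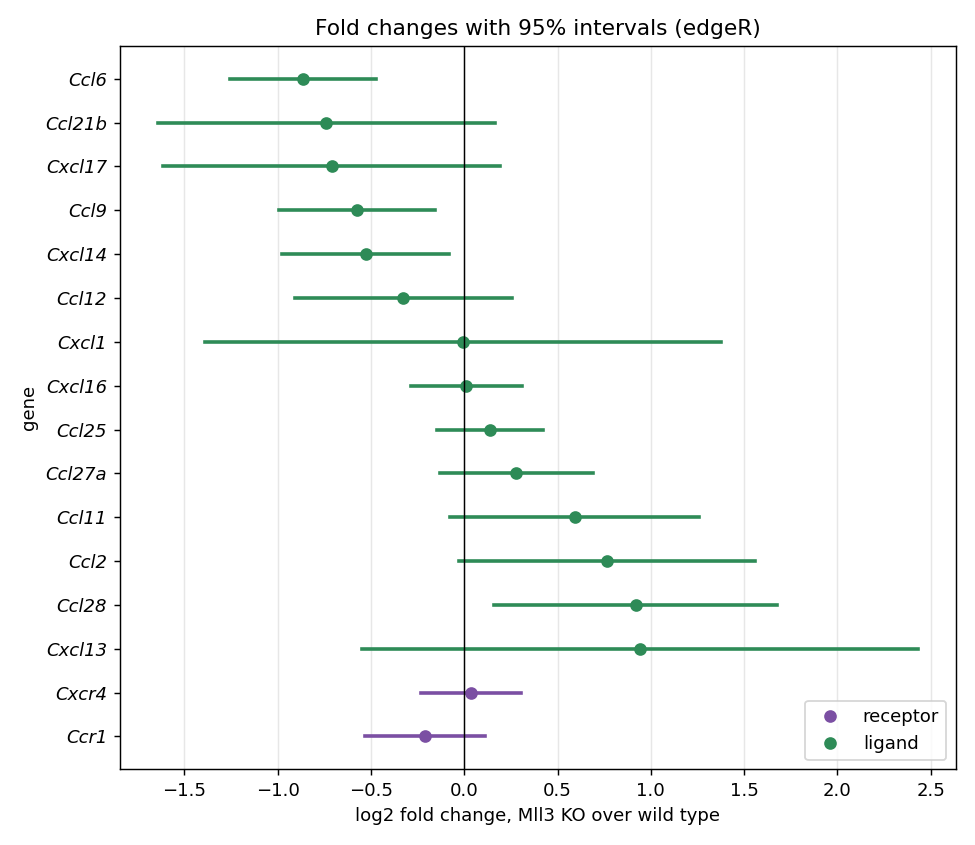
Log2 fold changes of 16 of the tested genes, knockout over wild type, as points with 95% intervals from edgeR, with ligands above and receptors below. Intervals of Ccl6, Ccl9, Cxcl14 and Ccl28 leave out 0 before adjustment, and those of the receptors Cxcr4 and Ccr1 lie on both sides of it.

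Of the 6 receptors 3 were tested and none was called by edgeR (0 at an unadjusted p under 0.05, and 0 in DESeq2). Cxcr4 (ENSMUSG00000045382, mm10 chr1:128588199-128592293), which acts in blood vessel patterning and holds blood-forming cells in their niche, carried 30.9% of all reads of the 29 genes. It had 34.0, 41.2 and 30.9 CPM in knockouts 1, 2 and 3, against 37.8, 35.4 and 30.4 CPM in wild types 1, 2 and 3. The groups overlapped over most of their range, and the 95% interval of its log2 fold change of 0.03 was −0.23 to 0.30. Ccr1, the receptor of Ccl6 and Ccl9, had 8.91, 6.99 and 6.77 CPM in knockouts 1, 2 and 3, against 8.85, 9.24 and 8.13 CPM in wild types 1, 2 and 3. Knockout 1 lay within the wild-type range and the other two below it, with a log2 fold change of −0.21 ± 0.14 (SE, edgeR adjusted p = 0.662).

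Cxcr3, a receptor of activated T and natural killer cells encoded on chromosome X, was not tested. It had 1, 1 and 1 reads in knockouts 1, 2 and 3, against 6, 2 and 5 reads in wild types 1, 2 and 3, a ratio of 0.233 with an exact 95% interval of 0.043 to 0.847 for counting error only. Cxcr3 and Ccl5 were the 2 of the 12 untested members whose genotypes did not overlap, against 10.3% of all 5055 untested genes with as many reads. Without a filter edgeR gave Cxcr3 an adjusted p of 0.574. Cxcr5, the B cell receptor of Cxcl13, had 6 reads in knockout and 7 in wild-type lungs, and Ccr9, the receptor of Ccl25, had 13 reads in knockout and 15 in wild-type lungs. A further 18 family genes had a row in the count table with at most 10 reads each and are not in the normalized table, and 5 of them had no read. Among them Ccr3, the eotaxin receptor, had 6 reads in knockout and 3 in wild-type lungs, and Ccr10, the receptor of Ccl27a and Ccl28, had 4 reads in knockout and 3 in wild-type lungs.

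Added up, the 23 ligands had 61.5 to 64.8 CPM in knockout and 67.4 to 71.2 CPM in wild-type lungs, and the groups did not overlap. That rested on Ccl6, without which the other 22 ligands had 49.3 to 56.3 CPM in knockout and 50.8 to 55.7 CPM in wild-type lungs. The 6 receptors had 41.0 to 50.4 CPM in knockout and 41.9 to 50.2 CPM in wild-type lungs. No test was run on these sums.

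Related genes of the chemokine system, which include other attractants and receptors, scavenging receptors and shared signalling and adhesion, were listed beside the members. Of 34 genes, 29 were tested, and 0 were called higher and 0 lower by edgeR. Ccrl2 alone had an unadjusted p below 0.05, against 10.7% of all genes. DESeq2 and limma voom called 0. The median log2 fold change of the tested related genes was −0.09, against 0.01 over all genes tested. The genotypes did not overlap for 4 of the 29 (0 higher and 4 lower), against 17.0% of all genes tested. Those 4 were Ccrl2, Cx3cr1, Gnai3 and Arrb1. The other ligands and receptors, 5 tested, and the atypical receptors, 3 tested, all had negative point estimates. Those of shared signalling and adhesion, 21 tested, were mixed, with 8 positive and 13 negative. Ccrl2, a receptor-like protein that binds the attractant chemerin, had 11.5, 9.69 and 13.0 CPM in knockouts 1, 2 and 3, against 15.2, 14.3 and 15.7 CPM in wild types 1, 2 and 3, without overlap (log2 fold change −0.40 ± 0.12 SE, edgeR adjusted p = 0.257). Cx3cr1, the fractalkine receptor of macrophages and monocytes, averaged 21.3 ± 0.81 CPM in knockout and 24.1 ± 0.75 CPM in wild-type lungs (SD, n = 3 each) and did not overlap either (−0.17, edgeR adjusted p = 0.486). The scavenging receptors Ackr2, Ackr3 and Ackr4 were at −0.30, −0.12 and −0.69. Ackr4 was low, with 41 reads in knockout and 67 in wild-type lungs. Its genotypes overlapped and its SE was 0.49. Ackr1, the scavenging receptor of venules and red cells, was not tested and is named because of its values, with 7, 9 and 4 reads in knockouts 1, 2 and 3, against 4, 1 and 2 reads in wild types 1, 2 and 3. Its ratio was 2.88 with an exact 95% interval of 1.17 to 8.07 for counting error only. The 21 tested genes of shared signalling and adhesion, which include the inhibitory G protein subunit Gnai2 (−0.06) and the arrestin gene Arrb2 (0.09), ran from −0.26 to 0.13.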

How the data were processed

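Per the labels, libraries were strand-specific, from poly(A) RNA, and read as 75 bp single reads. The submitters' processing notes name bcl2fastq 2.19.1, GSNAP 2019-06-10, featureCounts 1.6.3, DESeq2 1.24.0 and mm10. Per the file headers, the deposited raw counts used reverse-stranded counting (setting 2), Ensembl release 98 and a mapping quality of at least 1, which removes most reads of near-identical copies. A deposited normalized signal equals these counts over a size factor of each library. All of its genes (100%) returned the count within 0.1 read, and edgeR on those recovered reads, an alternative added after seeing the data, called 12 genes higher and 58 lower.

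Of 55513 rows, 92 spike-in rows were left out, and 19042 genes passed filterByExpr. They were tested with edgeR 4.0.16 (TMM scaling, robust quasi-likelihood, genotype as the only term), which called 12 genes higher and 58 lower at an adjusted p under 0.05. The scripts were checked on simulated data. An SE is the size of the log2 fold change over the square root of F, and intervals use the test's degrees of freedom. CPM are after TMM scaling. Replicates were not copies of each other (chi-square over degrees of freedom 8.49 to 21.12). Replicate numbers follow sample order and pair nothing. Of the tested members 1 is not reported here by name. The others are named, with values for those of lowest p or highest level in each role. Members, lists and roles were chosen with earlier results of these data known. RefSeq promoters (GRCm38.p6) matched 19 of the 29 members. Alternatives were DESeq2 1.42.0, limma 3.58.1 (voom, and log2 of the signal plus 1), other scaling and filters, the title prefix as a term, and leaving out each library.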

Additional observations from a re-analysis of the deposited data

How the results depend on the processing

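The count of 12 genes higher and 58 lower over the whole table was 103 and 340 with no filter, 60 and 289 in DESeq2, 0 and 8 in limma voom and 142 and 483 with the title prefix as a term. Leaving out 1 library gave 0 to 5 higher and 0 to 36 lower, with 0 and 0 without wild type 2 or wild type 3. The count of members called lower, 0, was 1 with no filter (Ccl6), 1 in DESeq2 (Ccl6), 1 with the title prefix as a term (Cxcl14), and 0 to 1 over the refits without 1 library (Ccl6 without knockout 3). No member was called higher and no related gene was called under any of the 15 alternatives. The median log2 fold change was taken over the members that each fit held. It was −0.20 with no filter, −0.20 with a filter of 1 CPM in 3 libraries and −0.20 in DESeq2. On the normalized signal it was −0.22, and without 1 library it was −0.29 to 0.04. The fit with no filter, DESeq2 and the fit on the normalized signal held all 29 members, and the filters change how many are held. The medians of those 3 fits and of the fit with a filter of 1 CPM in 3 libraries therefore do not cover the same genes as the main one. The refits without wild type 1 and without wild type 2 held the same members as the main fit. Their medians were −0.20 and −0.09.

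Among 232 values of 16 single members with an adjusted p under the alternatives, 217 kept their direction and their side of the threshold, 4 passed it (Ccl6 in 3, Cxcl14 in 1) and 11 had the other sign, none of which passed. Cxcl16 was at −0.035 with the title prefix. Cxcl1 was at 0.03 with library size only, 0.29 in limma voom and 0.23 on the normalized signal. Without 1 library, Cxcl16 ran from −0.088 to 0.078, Cxcl13 from −0.06 to 1.30, Cxcl1 from −0.367 to 1.05, and Cxcr4 from −0.09 to 0.12. The cause was not tested. DESeq2 gave Cxcl1, Ccl2, Ccl28 and Ccl21b no adjusted p. SEs of tested members ran from 0.12 for Cxcr4 to 0.64 for Cxcl13, in which knockout 2 stands apart, and the 12 members with at most 65 reads did not pass the filter.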
